A study of Mus musculus with 6 samples.

Results

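The 50 genes described here act at the entry into S phase and at the DNA replication fork. They were chosen by name, and each was represented by the row of the count table with the highest mean count over all samples; all 50 had such a row and all 50 were among the 13864 genes tested. Splenic naive B cells of WT mice were kept for 2 days with anti-CD40 antibody at 500 ng/mL, which mimics the CD40 ligand of helper T cells, and IL-4 at 5 ng/mL, a growth and class switch factor of B cells. In 3 of the samples the medium also held 0.8 nM bryostatin 1, a drug that activates protein kinase C (IL-4 + bryostatin 1), and in the other 3 it did not (IL-4). The anti-CD40 antibody and IL-4 were thus common to both groups. No unstimulated sample was analysed here, so the values compare stimulated cultures with each other. Whether replicates were separate mice or separate cultures is not stated, and p-values therefore reflect only how much these samples varied, which may be technical variation.

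A cell that leaves G1 loads the MCM2-7 helicase onto replication origins with the help of the origin recognition complex, CDC6 and CDT1. Kinases and firing factors then switch the helicase on, and DNA polymerases, the sliding clamp PCNA and its loader copy the strands. Most of these genes are known targets of E2F transcription factors, which are released from RB proteins when cyclin-dependent kinases become active. Activated B cells divide quickly, and these genes are abundant in them.

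Library totals, with 1 row per gene, were 19959958 to 24896411 counts with IL-4 + bryostatin 1 and 20564303 to 22219376 counts with IL-4. The common biological coefficient of variation was 3.89%. B cell markers were abundant in every library, and Cd79a, a part of the B cell receptor, had 760, 777 and 700 CPM (a count divided by the scaled size of its library) with IL-4 + bryostatin 1 and 805, 852 and 813 CPM with IL-4. The 8 T cell markers summed to 2.17 to 3.08 CPM with IL-4 + bryostatin 1 and 0.778 to 1.23 CPM with IL-4, and the 5 NK cell markers to 2.64 to 3.12 and 3.36 to 5.12 CPM in the same groups. The 8 myeloid markers summed to 22.3 to 25.5 CPM with IL-4 + bryostatin 1 and 5.08 to 8.20 CPM with IL-4, with Adgre1 at 18.7 to 21.2 CPM and 2.78 to 3.93 CPM in the same groups. The 7 erythroid markers summed to 24.3 to 30.8 CPM with IL-4 + bryostatin 1 and 0.823 to 1.61 CPM with IL-4, mostly from Hbb-bt, while Alas2 was at 0 in every library. The part of these markers in the results was not tested.

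The replication genes as a whole stayed close to the level of the IL-4 cultures, but single members moved in both directions. With bryostatin 1, 20 of the 50 rose and 14 fell at an adjusted p under 0.05 (edgeR quasi-likelihood test, Benjamini-Hochberg over all genes tested), and 16 did not pass the test. That is 68% of the members, against 58.2% of all genes tested, of which 29.9% were higher and 28.3% lower. The median log2 fold change of the members, IL-4 + bryostatin 1 over IL-4, was 0.05, against -0.0008 over all genes. The changes were small, with a median size of 0.16 on the log2 scale against 0.25 over all genes. Only E2f2 and Pole2 changed by more than 0.5, and both fell. For 41 of the 50 members the samples of the groups did not overlap, which held for 63.5% of all genes. Tested against a fold change of 1.2 (edgeR glmTreat), 9 members were called higher and 2 lower, 11 of the 50 members, against 28.4% of all genes. In bulk RNA of this kind, fewer cells in a phase of the cycle and less RNA per cell cannot be told apart.

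**Figure D1:**
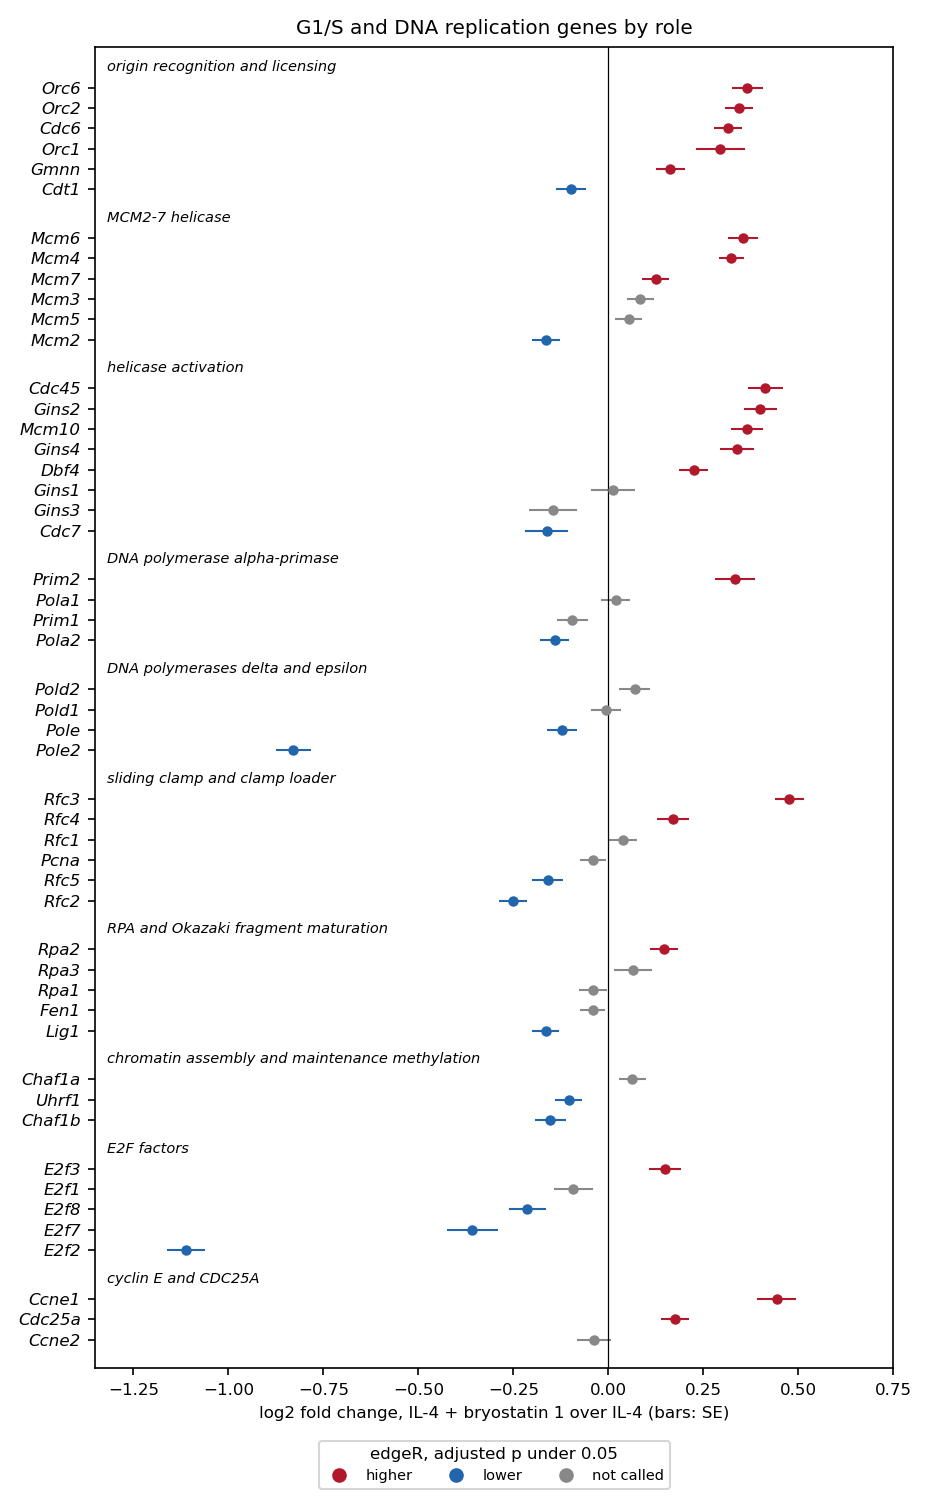
Log2 fold change (IL-4 + bryostatin 1 over IL-4) of the 50 genes on the x axis, grouped by role down the page, with bars for the SE from 3 samples a group and colours for the edgeR call at an adjusted p under 0.05. All but E2f2 and Pole2 lie within 0.5 of 0, and most of the origin licensing and helicase activation genes lie to the right of it.

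Summed over the 50 genes, the level was 8226, 8205 and 8428 CPM with IL-4 + bryostatin 1 and 7920, 7952 and 8189 CPM with IL-4, a log2 ratio of 0.05. These sums were higher in all 3 bryostatin 1 samples, but the highest IL-4 sample came close to the lowest of them. With libraries scaled by total counts alone the split was 24 higher and 11 lower, and the log2 ratio of the sums was 0.08. Within a group the libraries agreed closely, as the plot of each gene by library shows.

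**Figure D2:**
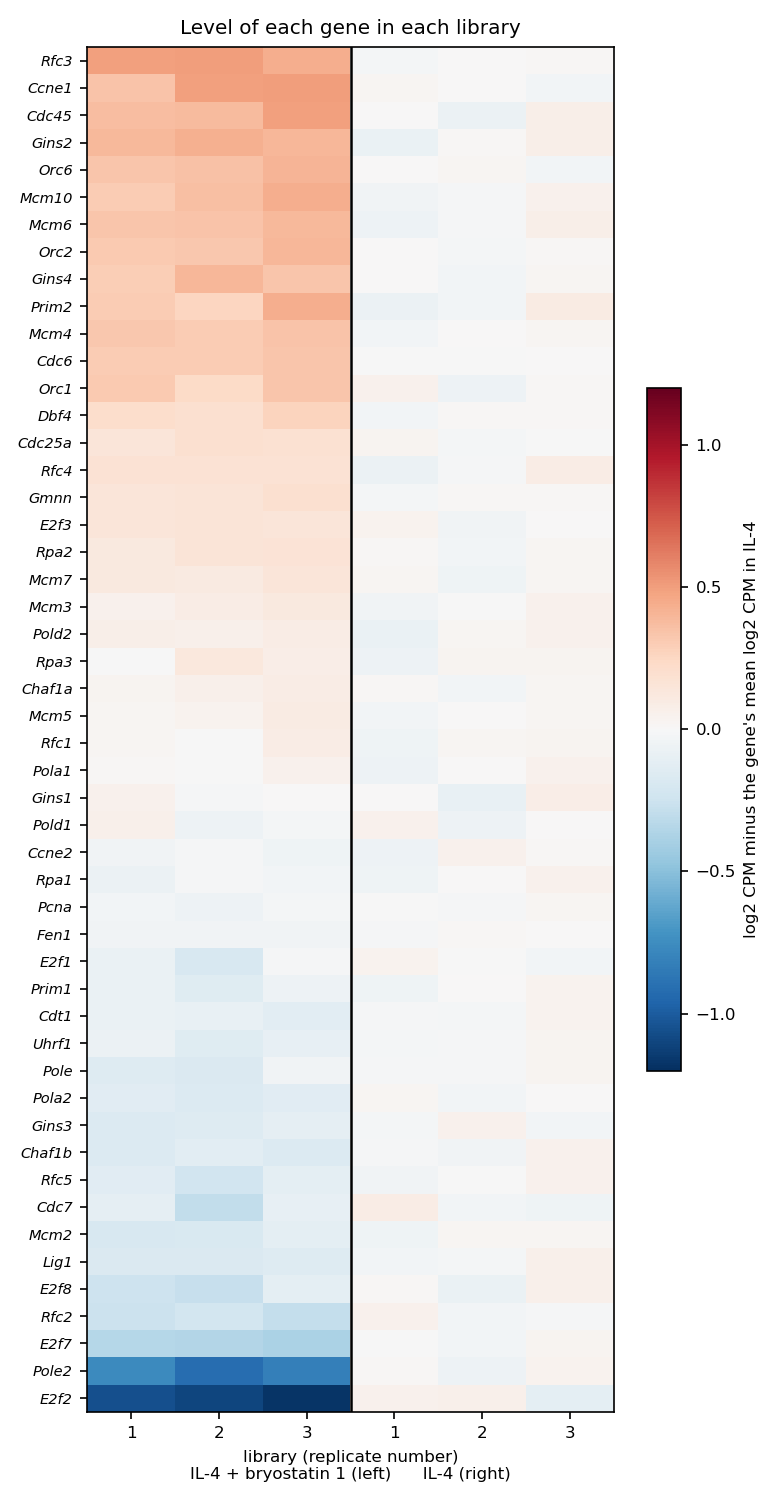
Level of each of the 50 genes (rows, ordered by log2 fold change) in each library (columns, IL-4 + bryostatin 1 on the left and IL-4 on the right), as log2 CPM minus the mean log2 CPM of that gene in the IL-4 libraries. The rows from Rfc3 down to Mcm7 are red in the 3 bryostatin 1 libraries, and E2f2 and Pole2 at the bottom are the darkest blue.

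The windows around the transcription starts of many of these genes hold short sequences that the choice of members did not use. RefSeq start windows (250 bases before to 50 after, build GRCm38.p6) were matched to 41 of the 50 members, with 51 windows. The letters of an E2F site (on either strand, the run TTCCCGC, the run TTGGCGC, the run TTCGCGC or the run TTGCCGC) stood in 32 of these windows, 62.7%, against 9.57% of all 32851 windows and 16.5% of the windows of genes tested. The windows of the members had a median GC content of 61.3%, and those of the genes tested 60.3%. Among genes with a window, the letters were found for 9 of 15 members that rose, 9 of 12 that fell and 10 of 14 that did not pass the test, so genes with and without a change held them. The CCAAT letters, on either strand, stood in 60.8% of the member windows and 37.4% of all windows. Among genes with a window, 11 of 15 members that rose and 11 of 14 that did not pass the test held them. Of the members that fell 5 of 12 did, 41.7%, close to the 43.8% of genes tested. Such matches are letters in a window and were not tested as binding sites. The 120 bases before the start are shown for 8 members whose values are given below, as examples with and without the letters there among genes that rose (Mcm6, Rfc3, Cdc25a, Cdc45) and genes that fell (Uhrf1, E2f7, Pole2, E2f2); capitals mark the E2F letters, which can overlap between strands.
Mcm6, chr1:128359706-128359825, minus strand: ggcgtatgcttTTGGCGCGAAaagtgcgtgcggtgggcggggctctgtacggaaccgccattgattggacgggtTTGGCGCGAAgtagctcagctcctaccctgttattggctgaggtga
Rfc3, chr5:151651209-151651328, minus strand: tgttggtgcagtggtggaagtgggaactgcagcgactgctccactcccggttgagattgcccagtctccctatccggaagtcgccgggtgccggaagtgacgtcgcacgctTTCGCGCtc
Cdc25a, chr9:109875459-109875578, plus strand: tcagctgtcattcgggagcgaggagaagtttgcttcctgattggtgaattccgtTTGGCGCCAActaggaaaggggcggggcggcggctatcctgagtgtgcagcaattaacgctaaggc
Cdc45, chr16:18811973-18812092, minus strand: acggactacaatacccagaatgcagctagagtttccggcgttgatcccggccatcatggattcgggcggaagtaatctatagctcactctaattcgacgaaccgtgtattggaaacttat
Uhrf1, chr17:56303217-56303336, plus strand: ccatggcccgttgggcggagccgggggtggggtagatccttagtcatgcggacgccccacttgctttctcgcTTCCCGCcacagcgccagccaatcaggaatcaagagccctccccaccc
E2f7, chr10:110745319-110745438, plus strand: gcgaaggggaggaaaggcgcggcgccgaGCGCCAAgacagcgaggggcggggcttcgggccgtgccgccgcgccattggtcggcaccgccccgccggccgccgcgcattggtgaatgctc
Pole2, chr12:69228191-69228310, minus strand: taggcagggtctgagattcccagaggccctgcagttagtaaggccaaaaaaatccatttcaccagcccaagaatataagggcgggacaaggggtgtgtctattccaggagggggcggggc
E2f2, chr4:136172154-136172273, plus strand: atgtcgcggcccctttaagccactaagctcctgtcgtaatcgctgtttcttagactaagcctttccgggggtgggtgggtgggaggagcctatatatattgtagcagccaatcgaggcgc
Mcm6 and Cdc25a carry runs in which the letters of the strands overlap, and Uhrf1 and E2f7, which fell, carry single matches in the same stretch. The matches of Pole2 and E2f2 lie outside it, 10 and 40 bases after the start. Cdc45 has none in its window, and neither do Ccne1, Mcm10, Orc6, Orc2 and Dbf4, which also rose.

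The genes that mark and license origins rose, with 1 exception. Together with Gmnn, whose product restrains licensing, they make up 6 genes. Of these 5 were higher and 1 was lower (100% called, against 58.2% of all genes), with a median log2 fold change of 0.30. Orc6, a subunit of the origin recognition complex, had 85.1, 86.0 and 89.7 CPM with IL-4 + bryostatin 1 and 67.9, 68.7 and 65.8 CPM with IL-4, a log2 fold change of 0.37 (SE 0.04, adjusted p = 4.05e-07). Orc2, another subunit of that complex, had 127, 128 and 135 CPM with IL-4 + bryostatin 1 and 103, 101 and 104 CPM with IL-4, a log2 fold change of 0.34 (SE 0.04, adjusted p = 3.78e-07). Every bryostatin 1 sample lay above every IL-4 sample for both. Cdt1, which loads the helicase with CDC6 and is destroyed in S phase, went the other way. Its level was 78.8, 78.4 and 76.5 CPM with IL-4 + bryostatin 1 and 82.7, 81.8 and 85.7 CPM with IL-4, a log2 fold change of -0.10 (SE 0.04, adjusted p = 0.0381). This call was lost without IL-4 + bryostatin 1 replicate 1, 2 or 3 or IL-4 replicate 3, with adjusted p of 0.0628, 0.0769, 0.167 and 0.154. Orc1, Cdc6 and Gmnn, the inhibitor of CDT1, rose by 0.29, 0.31 and 0.16 on the log2 scale. Counted within each library, Cdt1 stood to its inhibitor Gmnn at 0.904 ± 0.0310 with IL-4 + bryostatin 1 and at 1.08 ± 0.0251 with IL-4 (SD, n = 3 each).

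The subunits of the MCM2-7 ring, which are present in equal number in the complex, did not move alike. Of the 6 genes 3 were higher and 1 was lower, 66.7% called against 58.2% of all genes. Mcm6 had 644, 648 and 671 CPM with IL-4 + bryostatin 1 and 492, 508 and 536 CPM with IL-4, a log2 fold change of 0.35 (SE 0.04, adjusted p = 3.44e-07). Mcm4 had 438, 432 and 443 CPM with IL-4 + bryostatin 1 and 342, 352 and 355 CPM with IL-4, a log2 fold change of 0.32 (SE 0.03, adjusted p = 2.15e-07). Neither gene had overlapping groups, and their products sit side by side in the ring with MCM7. Mcm2 had 303, 305 and 320 CPM with IL-4 + bryostatin 1 and 334, 352 and 352 CPM with IL-4, a log2 fold change of -0.16 (SE 0.04, adjusted p = 0.000911). Mcm5 had 481, 488 and 506 CPM with IL-4 + bryostatin 1 and 464, 475 and 482 CPM with IL-4, so its groups overlapped (log2 fold change 0.05, SE 0.04, adjusted p = 0.207). Mcm2 thus fell while its groups stayed apart, and Mcm5 did not pass the test. Mcm7 rose by 0.13, a call lost without IL-4 replicate 2 (adjusted p = 0.0687). Mcm3 had a log2 fold change of 0.08 (adjusted p = 0.0560) and passed the test without IL-4 + bryostatin 1 replicate 1 (0.0406) or IL-4 replicate 3 (0.0202). Summed over the 6 genes the level was 2898, 2918 and 3008 CPM with IL-4 + bryostatin 1 and 2602, 2645 and 2728 CPM with IL-4. A ratio of 2 genes within a library does not depend on the scaling of the libraries. The pairs in such ratios were chosen after their values were seen, here the largest rise and the only called fall of the 6. That the groups stand apart in these ratios is therefore no further evidence. Mcm6 stood to Mcm2 at 2.13, 2.13 and 2.10 counts with IL-4 + bryostatin 1 and at 1.47, 1.44 and 1.52 counts with IL-4. Per kilobase of transcript, by lengths of the GENCODE M21 annotation, the 6 genes lay between 91.6 and 195 CPM per kb with IL-4 + bryostatin 1 and between 97.4 and 184 CPM per kb with IL-4, with Mcm3 highest in both.

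The genes that switch the helicase on had a similar balance to the licensing genes. Of 8 genes 5 were higher and 1 was lower (75% called, against 58.2% of all genes), with a median log2 fold change of 0.28. Cdc45, which joins MCM2-7 in the active helicase, had 109, 109 and 119 CPM with IL-4 + bryostatin 1 and 84.3, 80.3 and 88.2 CPM with IL-4, a log2 fold change of 0.41 (SE 0.04, adjusted p = 3.58e-07). Gins2, part of the GINS complex of the same helicase, had 72.0, 74.2 and 72.5 CPM with IL-4 + bryostatin 1 and 52.2, 55.7 and 57.8 CPM with IL-4, a log2 fold change of 0.40 (SE 0.04, adjusted p = 4.71e-07). Both had groups that did not overlap. Its partner Gins1 had 32.8, 31.4 and 31.9 CPM with IL-4 + bryostatin 1 and 31.9, 29.8 and 33.5 CPM with IL-4, overlapping ranges with a log2 fold change of 0.01 (SE 0.06, adjusted p = 0.864). The GINS genes therefore differed among themselves: Gins2 and Gins4 (0.34) passed the test, and Gins1 and Gins3 (-0.15, adjusted p = 0.0559) did not. Cdc7, the kinase that phosphorylates MCM2-7, had 41.8, 36.9 and 42.1 CPM with IL-4 + bryostatin 1 and 47.8, 44.1 and 43.5 CPM with IL-4, a log2 fold change of -0.16 (SE 0.06, adjusted p = 0.0222). Without IL-4 + bryostatin 1 replicate 2 or IL-4 replicate 1 its adjusted p was 0.152 and 0.114. Dbf4, the activating subunit of that kinase, rose by 0.22, and Mcm10, which helps the helicase start, by 0.37.

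Among the DNA polymerases, the largest change was the fall of Pole2. Pole2, the second subunit of the leading-strand polymerase epsilon, had 56.7, 51.2 and 54.5 CPM with IL-4 + bryostatin 1 and 97.2, 92.4 and 99.4 CPM with IL-4, which is 1.78-fold lower with bryostatin 1 (log2 fold change -0.83, SE 0.05, adjusted p = 3.18e-11). The groups lay far apart. Pole, its catalytic subunit, had 167, 165 and 181 CPM with IL-4 + bryostatin 1 and 185, 184 and 190 CPM with IL-4, a log2 fold change of -0.12 (SE 0.04, adjusted p = 0.0134). Without IL-4 + bryostatin 1 replicate 1 or 2 the adjusted p of Pole was 0.0627 and 0.0846. Pold1, the catalytic subunit of polymerase delta, had 200, 184 and 189 CPM with IL-4 + bryostatin 1 and 199, 185 and 193 CPM with IL-4 (log2 fold change -0.01, SE 0.04, adjusted p = 0.900). The groups of Pold1 overlapped, and Pold2, with 0.07, did not pass the test either. In the polymerase alpha-primase complex, which lays down the RNA-DNA primers, 1 of 4 genes was higher and 1 was lower. That is 50% called, against 58.2% of all genes. Prim2, the large primase subunit, had 73.7, 71.2 and 80.9 CPM with IL-4 + bryostatin 1 and 56.9, 58.5 and 63.9 CPM with IL-4, a log2 fold change of 0.33 (SE 0.05, adjusted p = 3.21e-05). Pola2, the regulatory subunit of polymerase alpha, had 81.4, 79.9 and 81.5 CPM with IL-4 + bryostatin 1 and 91.0, 87.1 and 89.7 CPM with IL-4, a log2 fold change of -0.14 (SE 0.04, adjusted p = 0.00397). Neither of these had overlapping groups. The catalytic subunit Pola1 had 127, 126 and 131 CPM with IL-4 + bryostatin 1 and 121, 127 and 131 CPM with IL-4 (log2 fold change 0.02, SE 0.04, adjusted p = 0.688), and the small primase subunit Prim1 had a log2 fold change of -0.09 (adjusted p = 0.0552), which passed the test without IL-4 replicate 1 (0.0252).

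The sliding clamp itself was nearly level, while the subunits of its loader were split. Pcna, which tethers polymerases to DNA and was the most abundant member per kilobase, had 610, 600 and 614 CPM with IL-4 + bryostatin 1 and 625, 617 and 634 CPM with IL-4 (log2 fold change -0.04, SE 0.03, adjusted p = 0.319). Rfc3, a small subunit of the loader, had 93.9, 94.6 and 90.7 CPM with IL-4 + bryostatin 1 and 66.0, 67.1 and 67.6 CPM with IL-4, a log2 fold change of 0.48 (SE 0.04, adjusted p = 7.50e-09), the largest rise of the 50 genes. Rfc2, another small subunit, had 133, 136 and 130 CPM with IL-4 + bryostatin 1 and 164, 155 and 157 CPM with IL-4, a log2 fold change of -0.25 (SE 0.04, adjusted p = 1.28e-05). The groups of Rfc3 and Rfc2 did not overlap, and Rfc3 stood to Rfc2 at 0.699 ± 0.00625 counts with IL-4 + bryostatin 1 and 0.422 ± 0.0172 counts with IL-4 (SD, n = 3 each). Rfc4 rose by 0.17 and Rfc5 fell by 0.16. Rfc1, the large subunit, had 163, 159 and 170 CPM with IL-4 + bryostatin 1 and 154, 162 and 164 CPM with IL-4, overlapping ranges (log2 fold change 0.04, SE 0.04, adjusted p = 0.423).

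**Figure D3:**
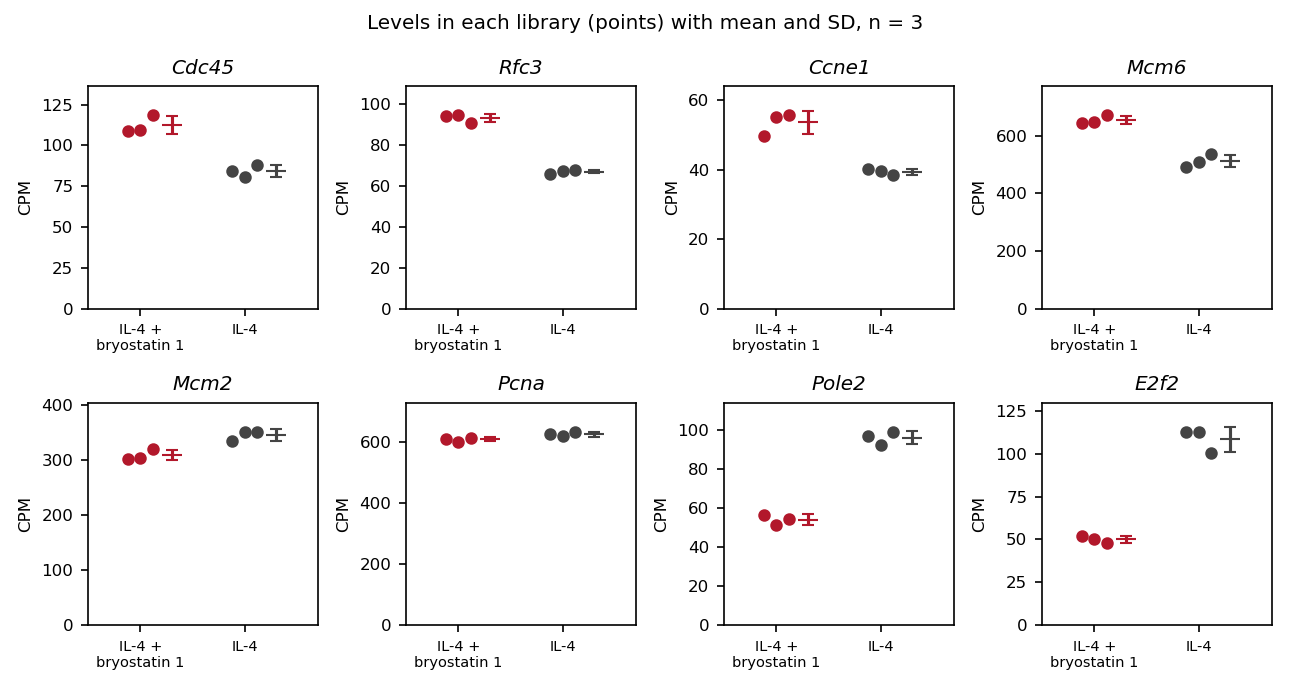
Level in CPM (y axis, starting at 0) of 8 genes in each library, IL-4 + bryostatin 1 on the left and IL-4 on the right, with the mean and SD of 3 libraries beside the points. Cdc45, Rfc3, Ccne1 and Mcm6 are higher with bryostatin 1, Mcm2, Pole2 and E2f2 are lower, and Pcna lies between 600 and 634 CPM in all 6 libraries.

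The single-strand binding protein and the genes that join Okazaki fragments changed little. Rpa2, the middle subunit of RPA, had 116, 119 and 119 CPM with IL-4 + bryostatin 1 and 108, 104 and 108 CPM with IL-4, a log2 fold change of 0.15 (SE 0.04, adjusted p = 0.00238). Lig1, the ligase that seals the fragments, had 291, 292 and 295 CPM with IL-4 + bryostatin 1 and 321, 322 and 341 CPM with IL-4, a log2 fold change of -0.16 (SE 0.04, adjusted p = 0.000648). Both kept their groups apart. Rpa1, Rpa3 and the flap nuclease gene Fen1 had log2 fold changes of -0.04, 0.07 and -0.04 and did not pass the test; Rpa1 had 304, 316 and 313 CPM with IL-4 + bryostatin 1 and 308, 320 and 331 CPM with IL-4.

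Of the 3 genes that restore chromatin behind the fork, 2 fell slightly. That is 66.7% called, against 58.2% of all genes. Chaf1b, a subunit of the histone chaperone CAF-1, had 78.7, 80.9 and 78.8 CPM with IL-4 + bryostatin 1 and 87.5, 85.7 and 91.6 CPM with IL-4, a log2 fold change of -0.15 (SE 0.04, adjusted p = 0.00320). Uhrf1, which brings the maintenance methyltransferase to new DNA, had 504, 478 and 495 CPM with IL-4 + bryostatin 1 and 522, 523 and 543 CPM with IL-4, a log2 fold change of -0.10 (SE 0.04, adjusted p = 0.0182). The groups of both were apart, but the call of Uhrf1 was lost without IL-4 + bryostatin 1 replicate 2 or 3 or IL-4 replicate 3, with adjusted p of 0.115, 0.0628 and 0.0776. Chaf1a, the large subunit of CAF-1, had 162, 165 and 169 CPM with IL-4 + bryostatin 1 and 160, 154 and 160 CPM with IL-4 (log2 fold change 0.06, SE 0.04, adjusted p = 0.140).

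The E2F genes moved apart. E2f2, an activator E2F, had 52.1, 50.4 and 48.1 CPM with IL-4 + bryostatin 1 and 113, 113 and 100 CPM with IL-4, which is 2.16-fold lower with bryostatin 1 (log2 fold change -1.11, SE 0.05, adjusted p = 2.22e-12) and the largest change among the 50 genes. E2f3, another activator, had 64.0, 64.3 and 63.9 CPM with IL-4 + bryostatin 1 and 59.6, 55.9 and 57.8 CPM with IL-4, a log2 fold change of 0.15 (SE 0.04, adjusted p = 0.00510). E2f1, the third activator, had 45.6, 42.1 and 47.6 CPM with IL-4 + bryostatin 1 and 49.4, 48.0 and 46.9 CPM with IL-4, with overlapping groups (log2 fold change -0.09, SE 0.05, adjusted p = 0.134). The activators thus differed in sign, and E2f2 stood to E2f1 at 1.12 ± 0.0964 counts with IL-4 + bryostatin 1 and 2.26 ± 0.111 counts with IL-4 (SD, n = 3 each). The atypical E2Fs, known as repressors that E2Fs themselves induce, were both lower. E2f7 had 15.1, 15.1 and 14.7 CPM with IL-4 + bryostatin 1 and 19.1, 18.8 and 19.7 CPM with IL-4, a log2 fold change of -0.36 (SE 0.07, adjusted p = 0.000163), and E2f8 fell by 0.21 on the log2 scale. E2f7 was the least abundant member per kilobase, at 2.74 CPM per kb with IL-4 + bryostatin 1 and 3.51 CPM per kb with IL-4.

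At the cyclin-dependent kinase that drives S phase entry, 2 of 3 genes rose. That is 66.7% called, against 58.2% of all genes. Ccne1, cyclin E1, had 49.8, 55.3 and 55.8 CPM with IL-4 + bryostatin 1 and 40.1, 39.5 and 38.5 CPM with IL-4, a log2 fold change of 0.44 (SE 0.05, adjusted p = 8.63e-07). Cdc25a, the phosphatase that activates the cyclin E kinase, had 110, 114 and 114 CPM with IL-4 + bryostatin 1 and 102, 98.0 and 99.8 CPM with IL-4, a log2 fold change of 0.18 (SE 0.04, adjusted p = 0.000531). Both had groups that did not overlap. Cyclin E2 did not follow: Ccne2 had 52.8, 53.8 and 52.5 CPM with IL-4 + bryostatin 1 and 52.0, 56.5 and 54.9 CPM with IL-4 (log2 fold change -0.04, SE 0.04, adjusted p = 0.478). Ccne1 stood to Ccne2 at 1.01 ± 0.0612 counts with IL-4 + bryostatin 1 and 0.724 ± 0.0409 counts with IL-4 (SD, n = 3 each).

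**Figure D4:**
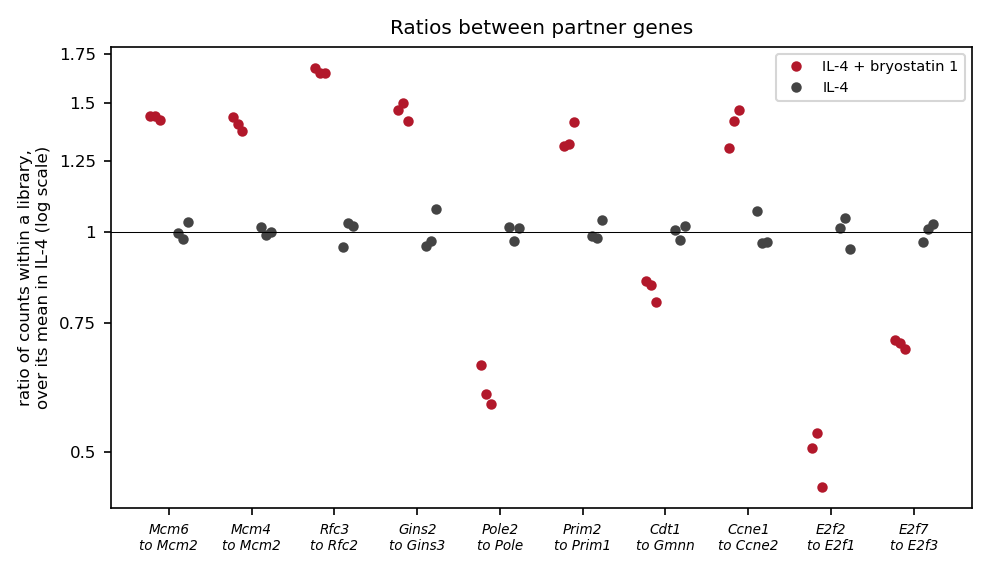
Ratio of the counts of 10 pairs of partner genes within each library, divided by the mean ratio in the IL-4 libraries (log axis), with IL-4 + bryostatin 1 to the left of IL-4 in each pair. The pairs were chosen after their values were seen, and in none of them do the points of the groups overlap; E2f2 to E2f1 lies lowest with bryostatin 1 and Rfc3 to Rfc2 highest.

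Genes around the 50 were examined in the same fit. Of 29 other fork and origin genes 14 rose and 4 fell (median log2 fold change 0.08), 62.1% called against 58.2% of all genes. Orc5, an origin recognition subunit, had 70.8, 75.2 and 69.8 CPM with IL-4 + bryostatin 1 and 27.3, 28.4 and 27.9 CPM with IL-4 (log2 fold change 1.37, SE 0.05, adjusted p = 6.16e-14), a larger rise than any of the 50. Pold4, the small subunit of polymerase delta, had a log2 fold change of -0.89, a larger fall than that of Pole2. Mtbp, which works with the origin firing factor TICRR, had a log2 fold change of 0.53. Of 11 nucleotide supply genes with enough counts 5 rose and 2 fell (median 0.08, 63.6% called). Among them were Rrm2 (0.30), a subunit of ribonucleotide reductase, Dctd (0.39), a deaminase of the dTTP pathway, and Samhd1 (-0.36), which degrades dNTPs. Of 13 chromatin and histone supply genes 7 rose and 5 fell (median 0.11, 92.3% called), with Hells at 0.37, Casp8ap2 at 0.30 and Nasp at 0.29.

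Among the cyclins, CDKs, CDK inhibitors and E2F partners, some rises were larger than any of the 50. Of 14 tested cyclin, CDK and ubiquitin ligase genes of G1/S, 7 rose and 5 fell (median 0.09), 85.7% called against 58.2% of all genes. Cdk6, the partner of D cyclins, had 159, 163 and 159 CPM with IL-4 + bryostatin 1 and 63.3, 68.9 and 74.8 CPM with IL-4 (log2 fold change 1.21). Ccnd2, a D cyclin of B cells, had a log2 fold change of 0.89, and Fbxw7, which targets cyclin E for destruction, of -0.65. Among 6 tested CDK inhibitors 3 rose and 1 fell (66.7% called). Cdkn1a, which encodes p21, had 65.9, 68.2 and 66.3 CPM with IL-4 + bryostatin 1 and 9.45, 10.9 and 7.91 CPM with IL-4 (log2 fold change 2.83, SE 0.08, adjusted p = 1.65e-15). The cyclin D kinase partners and p21 were thus both higher. Cdkn2c fell by 0.59. Cdkn2a had a log2 fold change of 0.49 at 2.52 to 2.99 CPM with IL-4 + bryostatin 1 and 1.88 to 2.05 CPM with IL-4. The call of Cdkn2a was lost without IL-4 + bryostatin 1 replicate 2 or IL-4 replicate 2 or 3 (adjusted p of 0.0729, 0.0562 and 0.0524). It was also lost with DESeq2 in place of edgeR (adjusted p = 0.104). Of 13 RB family and E2F partner genes 6 rose and 3 fell (median 0.07, 69.2% called), with Tfdp2 (0.61) and E2f5 (0.55) up and Rbl1, which encodes p107, down (-0.61).

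Among the S phase checkpoint and mitotic genes more fell than rose. Of 11 checkpoint genes 1 rose and 4 fell (median -0.05), which is 45.5% called and below the share of all genes, with Etaa1, an activator of ATR, at 0.27, the inhibitory kinase gene Wee1 at -0.36 and Cdc25b at -0.26. Of 35 G2/M and mitosis genes 9 rose and 19 fell (median -0.13), 80% called against 58.2% of all genes. Kif23, a motor of cytokinesis, had 87.3, 89.9 and 90.3 CPM with IL-4 + bryostatin 1 and 123, 127 and 118 CPM with IL-4 (log2 fold change -0.46), and Prc1 and Nusap1, which bundle spindle microtubules, had -0.40 and -0.39. No test of the difference between the lists was made.

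**Figure D5:**
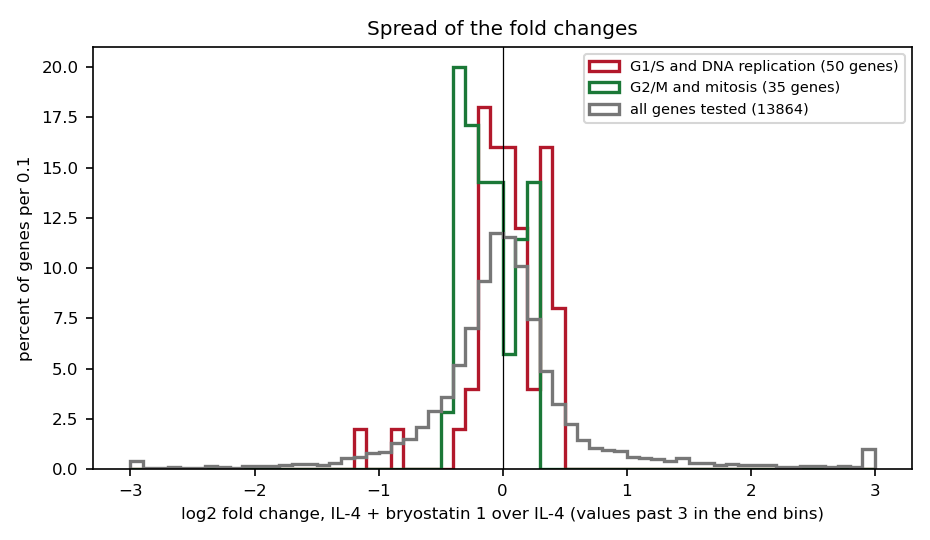
Percent of genes (y axis) in each 0.1-wide bin of log2 fold change, IL-4 + bryostatin 1 over IL-4 (x axis), for the 50 G1/S and DNA replication genes, 35 G2/M and mitosis genes and all 13864 genes tested. The 50 genes have no values past 0.5 on the higher side and 2 below -0.5, and the medians are 0.05, -0.13 and -0.0008.

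The table holds 1 row per transcript. The 50 genes have 156 rows. Of the 33 genes with several rows, the log2 ratio between the groups varied by at most 0.1 over the rows in 31, and by slightly more in Pola1 and Pole2. The rows of a gene held nearly the same counts in most cases. In 27 of the 33 genes the lowest row reached 90% or more of the highest, so this agreement is no independent check. With the row of lowest mean in place of the highest, Pola1 had a log2 fold change of 0.13 and passed the test (adjusted p = 0.0289), and Samhd1 had -0.18 in place of -0.36. In the GENCODE M21 annotation 18 members share exon bases with another gene, 16 of them on the opposite strand, and no source used here gives the strand setting of the counting. For these, reads of the pair may be mixed. Orc2 shares 1150 bases with Nif3l1, which had a log2 fold change of 0.58, and Rfc2 shares 952 bases with Lat2, which had -0.74, each in the direction of the member. The same held for Orc6 (171 bases with Vps35, 0.20), Cdc45 (209 bases with Ufd1, 0.27), Mcm7 (64 bases with Cops6, 0.20) and Rfc5 (499 bases with Wsb2, -0.15). Vps35 was more abundant than Orc6. Among pairs with both genes called, only Rfc4 and Eif4a2 moved in opposite directions. Other pairs ran against the member: Rfc4 (0.17) shares 194 bases with Eif4a2, which had -0.40 and was more abundant, and Lig1 (-0.16) shares 247 bases with Zswim9, which had 0.19 and did not pass the test. Gins2 shares 2758 bases with Gse1 (0.01) and Chaf1a 4648 bases with Ubxn6 (0.20). Pole2 shares 245 bases on the same strand with Gm49384, which was not among the genes tested.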

How the data were processed

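RNA libraries of 6 samples were prepared with a strand-specific kit. The authors used cutadapt and sickle for trimming, Hisat2 for mapping, Samtools for sorting and featureCounts for counting; no source used here gives their versions, the genome build, the annotation or the strand setting. The authors deposited whole-number counts for 139023 transcript rows with 46316 gene symbols, beside their own mean, fold change, p, q, rank and call columns, which were not used.

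The design had been set for gene counts, and rows turned out to be transcripts; 1 row per gene was used. Genes were kept by filterByExpr (minimum count 10, total 15). DEGES (TMM, exact test, removal of genes under an FDR of 0.1 or at least the top 5%, 3 rounds) was written anew. Tests were edgeR 4.0.16 quasi-likelihood F tests (R 4.3.3, 4 residual degrees of freedom), Benjamini-Hochberg adjusted, tested on simulated data. SE is the log2 fold change divided by the square root of F. A two-sided exact permutation test of 3 against 3 samples cannot give a p under 0.1. Alternatives used DESeq2 1.42.0, glmTreat, other scalings, filters, rows and samples. Replicates differed by 2.31 to 4.87 chi-square per gene, more than sampling noise, so none was taken as a copy. Members and lists were chosen with earlier results of these data known. Values in every sample are given, by role, for the 2 largest called changes, the smallest change and any call against the majority. Of each further list, up to 3 called genes with the largest change and a mean of at least 1 CPM are named, some with a fold change only. Pcna's values per sample, the pairs in ratios, marker genes and overlapping genes were chosen outside this rule, after values were seen. Promoter windows are RefSeq GRCm38.p6. Tables and plots used matplotlib 3.10.9, numpy 2.4.6, pandas 2.3.3 and Python 3.11.15.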

Additional observations from a re-analysis of the deposited data

How the results depend on the processing

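Against a fold change of 1.2, 9 members were higher and 2 lower, where 20 and 14 passed the test of any change. Under total count scaling the log2 ratio of the summed level was 0.076 instead of 0.047, and the median of all genes moved by 0.03. Leaving out 1 sample at a time gave 19 to 21 members higher and 10 to 14 lower, a median of 0.03 to 0.06 and a log2 ratio of the sums of 0.03 to 0.06. Outside the test against 1.2-fold, 19 of the 20 higher members and 10 of the 14 lower ones kept their call in every alternative run; the exceptions were Mcm7 (without IL-4 replicate 2) and Cdt1, Cdc7, Pole and Uhrf1, each in several. Mcm3, Mcm5, Gins3, Prim1, Chaf1a, Pold2 and Pola1 gained a call in at least 1 alternative. No called member changed sign. Samples with the same replicate number deviated together only weakly (r of 0.16, 0.07 and -0.01), so the numbers were not taken as pairs; with the replicate block 21 members were higher and 15 lower, Mcm3 and Prim1 having gained a call. Every member had enough counts to be tested in all 6 libraries, so depth removed none.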

Other observations

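The promoter windows of the replication genes and of the G2/M and mitosis genes shared the CCAAT letters, in 60.8% and 81.2% of windows against 37.4% of all windows, and had unlike shares of other letters. Of the 51 windows of the replication genes, 62.7% held the E2F letters and 25.5% the letters of the CHR element (TTTGAA or TTCGAA on either strand), against 12.5% and 78.1% of the 32 G2/M windows. All windows held them in 9.57% and 19.2%. These shares are descriptions with no test.

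Plasma cell markers, which were in none of the lists of cell cycle genes, did not move together. Prdm1, the plasma cell regulator Blimp-1, had 14.6, 12.8 and 17.2 CPM with IL-4 + bryostatin 1 and 3.90, 4.31 and 5.67 CPM with IL-4 (log2 fold change 1.68), and Sdc1 and Jchain had log2 fold changes of 1.03 and 1.28. Xbp1, which drives secretion, had 175, 172 and 166 CPM with IL-4 + bryostatin 1 and 310, 286 and 278 CPM with IL-4 (log2 fold change -0.77). The level of these genes beside the replication genes was not tested as a relation.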
